A study of Mus musculus with 16 samples.

Results

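The effect of dietary fenretinide on liver transcripts was compared between 2 feeding durations, as the effect after 20 weeks minus the effect after 7 days. All 16 of the 16 libraries of the series entered this comparison, 4 mice in each of 4 groups, and 13387 of the 23420 genes in the count table had enough counts to be tested. The mice were male C57BL/6J wild types that ate a 45% high-fat diet (HFD), or that diet with 0.04% fenretinide (FEN-HFD), and each diet was given to 1 cohort for 20 weeks and to another for 7 days. Their age was not stated in the sources used here, and duration, age and cohort cannot be told apart in any difference between the durations. Whole liver was taken, so that fewer cells of a type and less RNA per cell cannot be told apart.

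Fenretinide is a synthetic relative of vitamin A. Retinoic acid, the active form of vitamin A, binds the retinoic acid receptors, which sit with retinoid X receptors on paired short DNA repeats and switch on genes that store and break down retinoids, Cyp26a1 foremost among them. Long feeding of a high-fat diet loads hepatocytes with triglyceride and raises the expression of genes for fatty acid storage and oxidation, many of them under the nuclear receptor PPARα. The question asked here was which transcripts responded to fenretinide differently once the diet had been eaten for 20 weeks.

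Total counts ran from 19218230 to 32546829 per library, and the summed level of 8 hepatocyte markers from 53640 to 87106 CPM, counts scaled to the library's total and its TMM factor. The library of FEN-HFD mouse 29 at 20 weeks held 53.1% of its counts in Rn45s, the ribosomal RNA precursor, against 0.466% to 1.46% in the other 15. HFD mouse 143 at 7 days had 709 CPM of the interferon-inducible GTPase gene Tgtp1, against 5.02 to 9.68 CPM in its 3 group mates. HFD mouse 45 at 20 weeks had 2617 CPM of the muscle gene Ttn and 62.8 CPM of the muscle myosin light chain gene Mylpf, against 0.470 to 9.76 CPM and 0.274 to 0.572 CPM in the other libraries. For several lists whose counts moved when these libraries were left out, values are given with and without them.

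Of 13387 genes, 4 (0.0299%) had a fenretinide effect that differed between the durations at an adjusted p under 0.05 by edgeR's quasi-likelihood test with Benjamini-Hochberg adjustment. Atp8b5 had a more positive effect at 20 weeks (0.00747% of genes), and Cyp46a1, Abcc3 and Nnt had a more negative one (0.0224%). At an adjusted p under 0.1 there were 23 genes (0.172%), 9 more positive (0.0672%) and 14 more negative (0.105%), and at an unadjusted p under 0.05 there were 1162 (8.68%), 529 more positive and 633 more negative. DESeq2 called 117 genes (0.874%) and limma-voom with quality weights 90 (0.672%), 60 of them by both tools and in the same direction. All 4 genes called by edgeR were among those 60. The 95% interval of the difference, not adjusted for the number of genes, had a median half-width of 0.445 on the log2 scale. A call needed more than an interval clear of 0, as the largest unadjusted p among the 4 called genes was 5.89e-06 (edgeR). With 4 mice per group, differences well above the half-width could be missed, and a gene without a call is not shown to have equal effects. The number of calls depended on single mice. It was 6 without mouse 29, 14 without HFD mouse 45 at 20 weeks, and none without FEN-HFD mouse 65 at 7 days or without FEN-HFD mouse 22 at 20 weeks, where 942 and 1169 genes had an unadjusted p under 0.05.

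**Figure D1:**
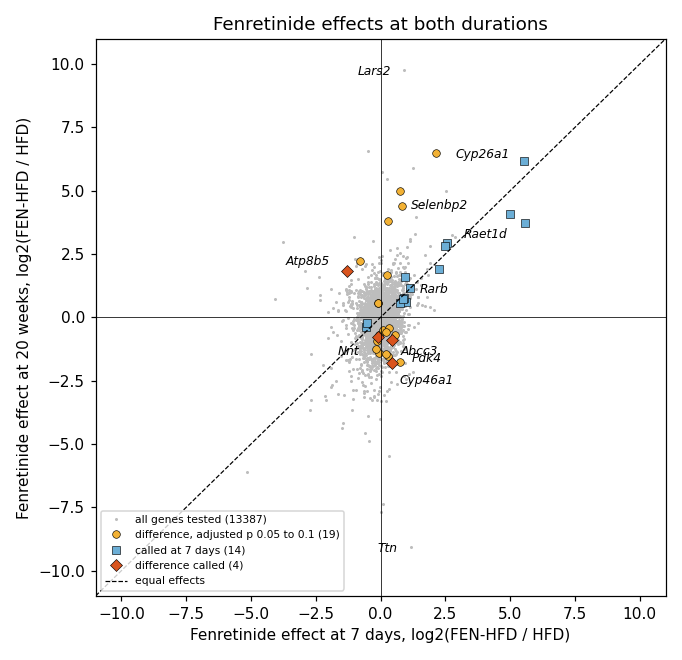
Log2 fold change with fenretinide at 7 days (x axis) and at 20 weeks (y axis) for the 13387 genes tested (grey points), with the 4 genes called for the difference (red diamonds), the 19 with an adjusted p between 0.05 and 0.1 (yellow circles) and the 14 called at 7 days (blue squares). The blue squares follow the dashed line of equal effects, Raet1d farthest from it among them, whereas of the 23 red and yellow symbols all but Atp8b5 and Mup9 lie within 1 of 0 on the x axis. Lars2 and Ttn, the 2 points farthest from the line, were each far higher in 1 library than in the other 15.

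Atp8b5 encodes a phospholipid flippase of the P4-ATPase family (chr4:43266722-43373831 in mm10). It overlaps the predicted genes Gm46850 and Gm46851. Its level was 0.564, 0.605, 0.581 and 0.398 CPM in the 4 HFD mice at 7 days and 0.286, 0.225, 0.217 and 0.121 CPM in the 4 FEN-HFD mice. After 20 weeks it was 0.604, 0.806, 0.425 and 0.525 CPM on HFD and 2.40, 2.08, 2.61 and 1.25 CPM on FEN-HFD. Every FEN-HFD mouse lay below every HFD mouse at 7 days and above every HFD mouse at 20 weeks. The log2 fold change with fenretinide was -1.30 at 7 days, which did not pass (adjusted p = 0.279, edgeR), and 1.83 at 20 weeks (adjusted p = 0.00187, edgeR). The difference was 3.13 on the log2 scale (SE 0.434, 95% interval 2.22 to 4.05, adjusted p = 0.0119, edgeR). This is a low transcript, with a mean above 1 CPM in the FEN-HFD group at 20 weeks alone, and it lost the call without mouse 65 or mouse 22.

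Cyp46a1 encodes cholesterol 24-hydroxylase, an enzyme best known from neurons (chr12:108334268-108362234). Its level at 7 days was 0.721, 0.827, 0.613 and 0.637 CPM on HFD and 0.886, 0.936, 0.868 and 1.13 CPM on FEN-HFD. At 20 weeks it was 3.62, 5.77, 4.91 and 3.19 CPM on HFD and 1.497, 1.21, 1.21 and 1.04 CPM on FEN-HFD. The HFD mice at 20 weeks stood above the 12 other mice, and the FEN-HFD mice at 20 weeks lay close to both 7-day groups. The difference between the fenretinide effects was -2.24 (SE 0.311, 95% interval -2.89 to -1.58, adjusted p = 0.0119, edgeR), made of a log2 fold change of 0.44 at 7 days, which did not pass, and of -1.80 at 20 weeks (adjusted p = 0.000175, edgeR). The call was lost without mouse 65 or mouse 22, with an adjusted p of at most 0.0543 in these fits (edgeR).

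Abcc3 (chr11:94343295-94393017) encodes MRP3, a pump that exports bile acid conjugates and glucuronides from hepatocytes to blood. It had 112, 103, 117 and 110 CPM on HFD and 137, 118, 159 and 181 CPM on FEN-HFD at 7 days. At 20 weeks it had 354, 418, 357 and 256 CPM on HFD and 183, 176, 177 and 211 CPM on FEN-HFD. With fenretinide all 4 mice were above the HFD mice at 7 days and all 4 were below them at 20 weeks. The log2 fold changes were 0.43 (adjusted p = 0.657, edgeR) and -0.89 (adjusted p = 0.00240, edgeR), and the difference was -1.32 (SE 0.201, 95% interval -1.75 to -0.89, adjusted p = 0.0197, edgeR). It was called in 10 of 16 fits that left out 1 mouse, and the highest adjusted p in the other 6 was 0.0841 (edgeR). Abcc3 overlaps Gm51871.

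Nnt encodes the mitochondrial transhydrogenase that makes NADPH from NADH, and C57BL/6J mice carry a known deletion in this gene. It spans chr13:119335527-119409257. The 7-day mice had 54.8, 56.5, 56.1 and 61.3 CPM on HFD and 53.5, 52.4, 54.2 and 52.9 CPM on FEN-HFD. The 20-week mice had 81.8, 87.6, 79.5 and 79.1 CPM on HFD and 48.2, 49.0, 52.3 and 43.0 CPM on FEN-HFD. The HFD mice at 20 weeks were again the highest of the 16, and the spread inside each group was small. The log2 fold change was -0.10 at 7 days, which did not pass, and -0.77 at 20 weeks (adjusted p = 3.95e-05, edgeR), with a difference of -0.67 (SE 0.102, 95% interval -0.88 to -0.45, adjusted p = 0.0197, edgeR). Nnt stayed called in 7 of 16 fits that left out 1 mouse, with adjusted p of at most 0.0841 in the rest (edgeR). Without mouse 29 all 4 genes kept their call, Nnt with a difference of -0.62.

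**Figure D2:**
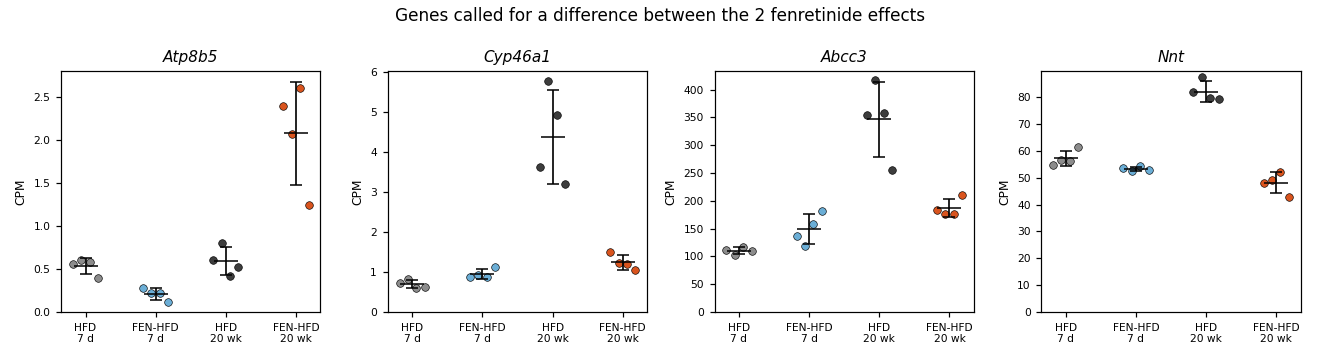
Level in CPM (y axis, from 0) of the 4 genes called for the difference, by mouse (points) in the 4 groups (x axis), with the mean and SD of 4 mice (bars). Cyp46a1, Abcc3 and Nnt are highest in the 4 HFD mice at 20 weeks, and Atp8b5 is highest in the 4 FEN-HFD mice at 20 weeks.

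The next 19 genes had an adjusted p between 0.05 and 0.1 (edgeR) and did not pass. They are named for their rank, chosen after their values were seen, and 17 of them were called by both DESeq2 and limma-voom. Selenbp2, a selenium-binding protein gene of liver cytosol, had 837 to 2452 CPM on HFD and 2280 to 3650 CPM on FEN-HFD at 7 days. At 20 weeks it had 22.3, 33.9, 69.2 and 100.35 CPM on HFD against 1079, 1494, 1339 and 825 CPM on FEN-HFD. The HFD mice at 20 weeks were far below all others, and the difference between the effects was 3.57 (SE 0.584, adjusted p = 0.0575, edgeR). Serpina1e, one of a set of close copies of the α1-antitrypsin gene whose reads may be shared, had 213, 89.9, 465 and 517 CPM on HFD and 4292, 3327, 4168 and 6183 CPM on FEN-HFD at 20 weeks, and 4271 to 9745 CPM in the 8 mice at 7 days. Its difference was 3.52 (SE 0.604, adjusted p = 0.0645, edgeR). Again the HFD mice at 20 weeks lay apart, below the other 12.

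Of the 19 genes, those with a more negative effect at 20 weeks included Pdk4, Crat, Vnn1 and Rdh16. Pdk4, which encodes a kinase that switches off pyruvate dehydrogenase, had 14.8, 18.7, 6.35 and 32.5 CPM in those mice, 4.58 to 6.54 CPM in FEN-HFD mice at 20 weeks and 1.88 to 3.59 CPM in all mice at 7 days. Its difference was -2.49 (SE 0.475, adjusted p = 0.0781, edgeR), and the 20-week groups overlapped. Crat, the carnitine acetyltransferase gene, had 98.4, 109.6, 106 and 93.8 CPM on HFD and 37.8, 39.2, 45.8 and 47.3 CPM on FEN-HFD at 20 weeks, and 12.8 to 25.6 CPM at 7 days (difference -1.08, SE 0.220). Vnn1, the pantetheinase vanin-1, had 127 to 189 CPM on HFD and 71.0 to 113 CPM on FEN-HFD at 20 weeks, whereas at 7 days its 27.1 to 38.0 CPM on HFD compared with 38.6 to 60.05 CPM on FEN-HFD (difference -1.26, SE 0.231). Rdh16, a retinol dehydrogenase, had 159 to 248 CPM on HFD and 69.3 to 94.4 CPM on FEN-HFD at 20 weeks, and 48.0 to 80.3 CPM in the 8 mice at 7 days (difference -1.36, SE 0.249). For each of these 4 genes the mean of FEN-HFD mice at 20 weeks lay between the HFD mean of the same cohort and both 7-day means. Lgals1 (galectin-1) and the pyruvate carrier gene Mpc1 followed the same order.

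Over all 23 genes with an adjusted p under 0.1, the HFD mice at 20 weeks stood above the other 12 mice in 12 genes and below them in 5, and the FEN-HFD mice at 20 weeks stood above in 3 and below in 3. Among all genes tested, the HFD mice at 20 weeks stood apart in 5.25% and the FEN-HFD mice in 0.71%. The same values chose the 23 genes, so these counts describe them and support nothing. Adamdec1 and Pcdh11x are among the 3 with the highest values under fenretinide at 20 weeks. Pcdh11x, a protocadherin gene, had 4.45, 4.97, 3.17 and 2.18 CPM there against at most 1.21 CPM in any other mouse (difference 3.01, SE 0.558, adjusted p = 0.0709, edgeR).

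**Figure D3:**
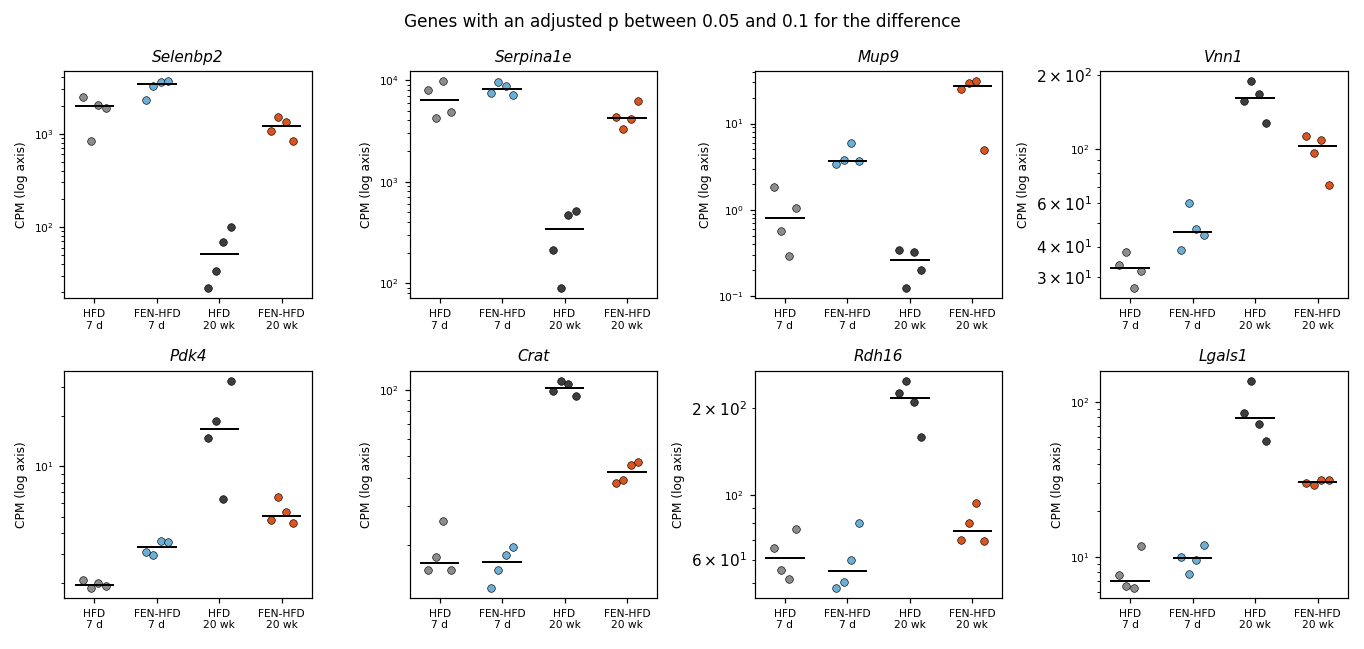
Level in CPM (log axis) of 8 of the 19 genes with an adjusted p between 0.05 and 0.1 for the difference, by mouse (points) in the 4 groups, with the group median (bar). Selenbp2 and Serpina1e are lowest, and Vnn1, Crat, Rdh16 and Lgals1 highest, in the HFD mice at 20 weeks. The group medians of Mup9 and Pdk4 are lowest and highest in the same group, where their mice overlap those of another group.

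With HFD mouse 45 at 20 weeks, HFD mouse 143 at 7 days and FEN-HFD mouse 29 at 20 weeks all left out, a fit chosen after the data were seen, 41 genes were called, 16 more positive and 25 more negative at 20 weeks. They included the 4 genes above and 9 of the 19 that followed. Of the 41, 39 had the same sign in the fit of 16 libraries and 34 an unadjusted p under 0.05 there. Cyp2c70, the enzyme that makes muricholic acids in mice, was called with a difference of 1.42 (adjusted p = 0.0274, edgeR), against 1.05 in 16 libraries. Its group means were 732 CPM on HFD and 1366 CPM on FEN-HFD at 7 days, and 188 and 729 CPM at 20 weeks. Fgfr1, a fibroblast growth factor receptor gene, was called with a difference of 1.76, and the proliferation genes Ccnb2, Cdc20 and Top2a with -2.26, -2.11 and -1.82. The 2 genes that changed sign were Gbp2 and Gbp6, interferon-inducible guanylate-binding protein genes, called at -1.02 and -1.20 against 1.99 and 2.22 in 16 libraries.

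Genes that fenretinide changed by 7 days, many of them retinoid genes, were then followed to 20 weeks. Promoters of 2 of these genes are shown because the element they carry is the kind that retinoic acid receptors bind, followed by 2 promoters of genes called for the difference. Each is the 250 bases before a start position listed in RefSeq (GRCm38.p6, which is mm10). In each gene this start lies inside the full span of the gene and is not its outer end. Capitals mark a pair of half-sites (the letters AGGTCA, the variant AGTTCA, the same starting with GG as GGGTCA, or the further variant GGTTCA, on either strand) in the same direction with 5 bases between them.
Cyp26a1 (chr19:37697558-37697807, plus strand): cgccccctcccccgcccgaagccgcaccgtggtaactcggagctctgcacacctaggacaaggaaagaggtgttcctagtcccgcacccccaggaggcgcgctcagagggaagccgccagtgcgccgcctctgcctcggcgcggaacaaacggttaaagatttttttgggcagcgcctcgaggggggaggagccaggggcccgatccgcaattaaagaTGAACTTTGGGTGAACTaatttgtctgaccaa
Rarb (chr14:16575477-16575726, minus strand): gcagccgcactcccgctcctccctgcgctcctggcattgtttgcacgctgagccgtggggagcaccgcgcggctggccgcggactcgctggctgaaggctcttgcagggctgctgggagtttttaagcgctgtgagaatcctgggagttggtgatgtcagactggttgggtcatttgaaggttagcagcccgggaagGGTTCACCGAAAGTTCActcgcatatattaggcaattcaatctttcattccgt
Cyp46a1 (chr12:108334066-108334315, plus strand): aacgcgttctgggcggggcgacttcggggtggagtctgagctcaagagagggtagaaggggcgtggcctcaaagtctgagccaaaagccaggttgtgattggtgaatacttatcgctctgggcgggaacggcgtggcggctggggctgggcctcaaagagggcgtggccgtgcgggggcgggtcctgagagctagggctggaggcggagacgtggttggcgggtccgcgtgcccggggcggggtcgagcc
Atp8b5 (chr4:43266909-43267158, plus strand): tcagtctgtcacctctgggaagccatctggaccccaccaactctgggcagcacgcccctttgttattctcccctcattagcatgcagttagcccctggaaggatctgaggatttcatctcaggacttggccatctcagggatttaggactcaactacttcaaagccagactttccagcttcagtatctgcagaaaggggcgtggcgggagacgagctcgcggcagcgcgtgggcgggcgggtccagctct
The pair lay 32 to 16 bases before the start in Cyp26a1 and 53 to 37 bases before it in Rarb. Of 9884 tested genes with a promoter in the RefSeq table, 5 (0.0506%) held such a pair in the 300 bases searched, Cyp26a1 and Rarb among them. Of the 14 genes called at 7 days 12 had a promoter, and these 2 held the pair. Of the 15 promoters found for the 23 genes with an adjusted p under 0.1 for the difference, 0 held it. At a share of 0.0506% almost any 15 promoters would give 0, so this count does not set these genes apart. A match is a string of letters and not a measured site.

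At 7 days fenretinide changed 14 genes (0.105%), 12 rising (0.0896%) and 2 falling (0.0149%). By edgeR 0 of them differed between the durations at an adjusted p under 0.05, where 0.0299% of all genes did. At that share almost any 14 genes would give 0, so this count does not set them apart. At an unadjusted p under 0.05 in edgeR 3 of the 14 differed, against 8.68% of all genes. DESeq2 called 1 (Raet1d) and limma-voom 0, where 0.874% and 0.672% of all genes were called. These 14 are named after their values were seen. In the separate mice fed for 20 weeks 13 of them passed again in the same direction, where 4.94% of all genes passed. Cyp26a1, the enzyme that degrades retinoic acid, had 3.20, 7.10, 1.097 and 8.68 CPM on HFD and 220, 215, 272 and 213 CPM on FEN-HFD at 7 days. At 20 weeks it had 5.02, 3.81, 3.83 and 3.96 CPM on HFD and 306, 301, 287 and 318 CPM on FEN-HFD. The groups were far apart at both times, with log2 fold changes of 5.53 and 6.19 and a difference of 0.66 (SE 0.532, 95% interval -0.48 to 1.80, adjusted p = 0.760, edgeR). Rarb, the receptor gene that retinoic acid itself induces, had log2 fold changes of 1.15 at each duration, and the 95% interval of the difference ran from -0.48 to 0.47. For Lrat, the enzyme that stores retinol as esters, the difference was -0.16 (95% interval -0.54 to 0.21), and for the cofactor gene Trim24 it was -0.12 (-0.48 to 0.24). Cyp26b1, a second retinoic acid hydroxylase, had 19.8 to 31.1 CPM on FEN-HFD at 7 days and 18.3 to 25.8 CPM at 20 weeks, against 2.39 to 8.27 and 2.57 to 7.27 CPM on HFD (difference -0.34, 95% interval -1.32 to 0.64).

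**Figure D4:**
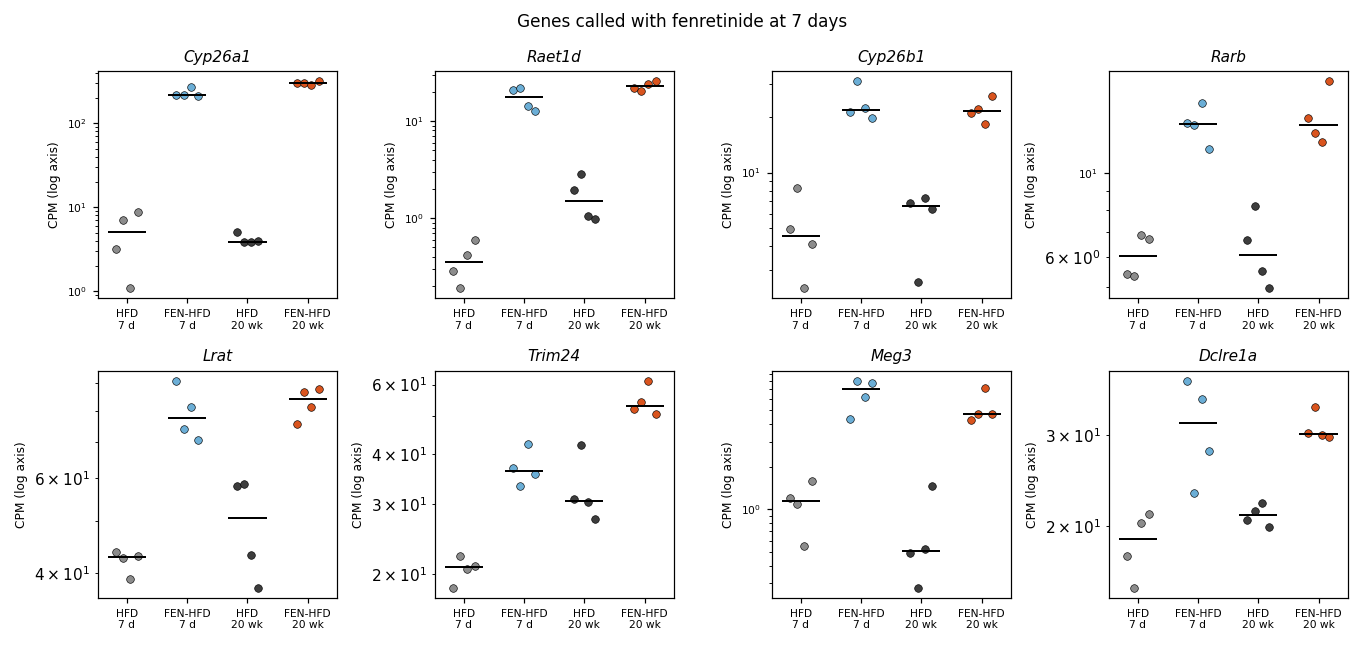
Level in CPM (log axis) of 8 of the 14 genes called with fenretinide at 7 days, by mouse (points) in the 4 groups, with the group median (bar). The FEN-HFD mice lie above the HFD mice of the same duration in every panel, and the HFD mice at 20 weeks lie above those at 7 days for Raet1d and Trim24.

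Raet1d and Raet1e encode RAE-1 ligands of the NKG2D receptor, named for their early induction by retinoic acid. Raet1d had 0.282, 0.191, 0.419 and 0.597 CPM on HFD and 20.9, 21.9, 14.3 and 12.7 CPM on FEN-HFD at 7 days. At 20 weeks it had 1.96, 2.82, 1.05 and 0.97 CPM on HFD and 22.0, 20.2, 24.2 and 25.8 CPM on FEN-HFD. The HFD mice at 20 weeks were above those at 7 days, and the FEN-HFD mice reached like levels at both times. The log2 fold changes were 5.57 and 3.74, with a difference of -1.83 (SE 0.474, 95% interval -2.83 to -0.82), which did not pass in edgeR (adjusted p = 0.209) and passed in DESeq2 (adjusted p = 0.0152). The copies of this family are close in sequence and reads may be shared. The imprinted noncoding RNAs Meg3 and Rian, neighbours on chromosome 12, had log2 fold changes of 2.58 and 2.50 at 7 days and 2.95 and 2.82 at 20 weeks. Mbl2, a lectin of the complement system, fell at both durations, by 0.57 and 0.38 on the log2 scale. Atp6v1g1, a subunit of the vacuolar proton pump, fell by 0.53 at 7 days and had a log2 fold change of -0.24 at 20 weeks that did not pass (adjusted p = 0.0728, edgeR). The list of 14 tested retinoic acid inducible genes, of which 6 rose at 7 days and 8 at 20 weeks, had a median difference of -0.09, beside 0.02 over all genes.

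The larger set is that of the genes called at 20 weeks, read in the 7-day mice, which share no animal with them. Of the 254 genes (1.9%) that rose at 20 weeks 78.3% had a log2 fold change above 0 at 7 days, against 45.2% of all genes. Of the 407 (3.04%) that fell 77.2% had one below 0 at 7 days, against 54.8% of all genes. Over all genes 56.8% had the same sign at both durations. The 7-day changes were small, with medians of 0.17 and -0.13 against 0.74 and -0.80 at 20 weeks. Of these 661 genes 13 passed at 7 days as well.

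Gene lists are described by how many tested members had a difference at an unadjusted p under 0.05 in edgeR, where 3.95% of all genes were more positive and 4.73% more negative at 20 weeks, and by the median difference, which was 0.02 over all genes. In refits the shares more positive and more negative were 3.92% and 5.36% without mouse 29, and 3.94% and 4.59% without HFD mouse 143. They were 3.74% and 5.17% without HFD mouse 45, and 4.26% and 7.79% without these 3 libraries together. Members counted at this level did not pass after adjustment unless named as called. The list with the most members in 1 direction was that of PPARα targets and fatty acid oxidation, with 25 of 45 more negative and 0 more positive. Its median difference was -0.52, from a median log2 fold change of 0.13 at 7 days and -0.37 at 20 weeks. Leaving out any 1 mouse gave 21 to 29 negative members. With 3 libraries left out there were 23. By DESeq2 10 members were called and by limma-voom 4, all more negative, where 0.5% and 0.388% of all genes were so called. Acot2, a mitochondrial acyl-CoA thioesterase, had group means of 2.39 and 2.65 CPM on HFD and FEN-HFD at 7 days and 15.98 and 5.76 CPM at 20 weeks (difference -1.61). Cyp4a10, the fatty acid ω-hydroxylase, had 36.8 and 56.6 CPM at 7 days and 332 and 131 CPM at 20 weeks (-1.97). Cd36, the fatty acid uptake receptor, had 56.6 and 48.1 CPM at 7 days and 320 and 126 CPM at 20 weeks (-1.11). The β-oxidation genes Hadha and Hadhb, the 2 subunits of the trifunctional protein, moved less, by -0.41 and -0.53. On HFD the list's median was higher at 20 weeks than at 7 days by 0.56, and on FEN-HFD by 0.11.

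Lipid droplet and triglyceride genes gave 11 of 32 members more negative and 0 more positive, with a median of -0.56, and 7 were more negative without HFD mouse 143. Plin2, the droplet coat protein, had 336 to 579 CPM in the 8 mice at 7 days, 785 to 1518 CPM on HFD at 20 weeks and 437 to 585 CPM on FEN-HFD at 20 weeks (difference -0.99, SE 0.272, adjusted p = 0.248, edgeR). Plin4 and Cidec, 2 further droplet proteins, differed by -1.55 and -1.75. Cidec is also expressed in adipocytes, whose 8 markers, Cidec among them, summed to 7.16 to 14.9 CPM at 7 days. At 20 weeks they summed to 65.4 to 166 CPM on HFD and 96.9 to 189 CPM on FEN-HFD. All 8 were detected in the HFD group at 20 weeks, and of these only Adipoq and Plin1 had 0 counts in the FEN-HFD group. Of the 3 tested markers 1 was called higher and 0 lower with fenretinide at 20 weeks, where 1.9% and 3.04% of all genes were. The part of fat cells in the Cidec difference was not tested. Mogat1, a monoacylglycerol acyltransferase, had at most 0.478 CPM at 7 days and 5.13 to 11.7 CPM on HFD against 1.35 to 2.92 CPM on FEN-HFD at 20 weeks (-1.88, adjusted p = 0.378, edgeR). Hsd17b13, the droplet-bound hydroxysteroid dehydrogenase, had 300.4, 264, 392 and 272 CPM on HFD and 259, 192, 221 and 223 CPM on FEN-HFD at 7 days, with no overlap. At 20 weeks it had 490, 681, 436 and 354 CPM on HFD and 191, 208, 198 and 220 CPM on FEN-HFD. It was lower with fenretinide in both cohorts and by more at 20 weeks, with log2 fold changes of -0.46 (adjusted p = 0.796, edgeR) and -1.26 (adjusted p = 0.000601, edgeR). Its difference of -0.81 (SE 0.240) did not pass (adjusted p = 0.315, edgeR).

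De novo lipogenesis split, with 5 of 20 members more negative and 3 more positive. The enzymes Acacb, Me1, Acss2, Pklr and Gpam were on the negative side, Me1 (malic enzyme) with means of 50.2 and 50.2 CPM at 7 days and 238 and 62.5 CPM at 20 weeks (difference -1.93). The regulators Srebf1, Mlxipl and Mid1ip1 were on the positive side. Srebf1, the sterol-responsive factor that drives lipogenic genes, had 529 CPM on HFD and 263 CPM on FEN-HFD at 7 days and 364 and 292 CPM at 20 weeks (0.69). Elovl5 and Fads1 make polyunsaturated fatty acids. Elovl5 had 265 to 449 CPM on HFD and 183 to 216 CPM on FEN-HFD at 7 days, and 736 to 1574 and 190 to 341 CPM at 20 weeks (-1.37, SE 0.329, adjusted p = 0.174, edgeR). Its fenretinide groups lay below the HFD groups in both cohorts, and the 7-day log2 fold change of -0.73 did not pass. For Fads1 the difference was -0.51 (SE 0.349). Cholesterol synthesis and uptake had 6 of 24 members more negative and 0 more positive, median -0.45. Over fits without 1 mouse the negative count ran from 3, without HFD mouse 143, to 9, without HFD mouse 45, and the median from -0.58 to -0.20. Hmgcs1, the cytosolic synthase of the pathway, went from 86.6 and 84.2 CPM to 342 and 140 CPM (-1.25).

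Bile acid genes went both ways. Cyp46a1 and Abcc3 were called, and of the 27 tested 6 were more negative and 2 more positive, with a median of -0.03. The positive count was 4 without mouse 29 and 5 without the 3 libraries. Among enzymes of synthesis, Cyp39a1 and Cyp8b1 were more negative at 20 weeks (-1.66 and -1.60) and Cyp2c70 more positive (1.05). Among regulators, Nr0b2, the corepressor SHP, was more positive (1.13). Among transporters, Slco1a4 and Abcb4 were more negative along with Abcc3 (-1.52 and -0.55). In the apolipoprotein list 3 of 23 members went each way, and without mouse 29 1 was more positive. Apoa4 had 347 to 496 CPM on HFD and 323 to 488 CPM on FEN-HFD at 7 days and 1757 to 5678 against 229 to 977 CPM at 20 weeks (-2.34, SE 0.550, adjusted p = 0.174, edgeR). Apoa1 differed by 0.52.

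Genes of retinol and retinal metabolism had 7 of 30 members more negative and 0 more positive, with a median of -0.18. They were the dehydrogenases and reductases Rdh16, Rdh9, Rdh11, Retsat and Hsd17b13, the ester hydrolase gene Ces1g and Aldh1a1, a retinal dehydrogenase. Retsat, retinol saturase, had 154 to 318 CPM in the 8 mice at 7 days, 416 to 646 CPM on HFD and 168 to 299.5 CPM on FEN-HFD at 20 weeks (difference -1.13, SE 0.294, adjusted p = 0.209, edgeR). Aldh1a1 had group means of 900.1 and 1014 CPM at 7 days and 2513 and 1628 CPM at 20 weeks (-0.80). Glutathione transferases and NRF2 targets gave 12 of 37 members more negative and 1 more positive, with Abcc3 the called one. Gstm1 and Gstm3, close paralogs whose reads may be shared, differed by -0.90 and -2.12, the quinone reductase Nqo1 by -0.87 and the peroxidase Gpx4 by -0.80, whereas Gstp1 differed by 0.76. Of 31 xenobiotic cytochromes and related genes 6 were more negative and 0 more positive, Ugt1a9 the most so (-2.74, adjusted p = 0.105, edgeR). Ugt1a9 overlaps other genes of the Ugt1a family, and reads may be shared. It had 23.5 to 81.4 CPM on HFD at 20 weeks, the highest in mouse 28.

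Complement and coagulation had 16 of 35 members more positive and 0 more negative, with a median of 0.36, from 0.01 at 7 days and 0.39 at 20 weeks. Leaving out any 1 mouse gave 13 to 18 such members, and leaving out the 3 libraries 11. C6, a component of the membrane attack complex, had 242 to 337 CPM on HFD and 242 to 327 CPM on FEN-HFD at 7 days, and 102, 112, 140 and 142 CPM on HFD against 182, 239, 254 and 274 CPM on FEN-HFD at 20 weeks (difference 0.94, SE 0.208, adjusted p = 0.124, edgeR). C8a (0.93) and C8b (1.45), which join the same complex, and C9 (0.77) followed it, as did the clotting factor genes F11 (0.70) and F7 (0.63). In each of these the HFD mean was lower at 20 weeks than at 7 days and the FEN-HFD mean at 20 weeks was closer to its 7-day value. Of 34 acute phase genes 10 were more positive and 1, Hamp, was more negative. Their median of 0.51 was 0.26 without mouse 29 and 0.16 without the 3 libraries. The fibrinogen genes Fga, Fgb and Fgg differed by 0.61, 0.73 and 0.58.

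**Figure D5:**
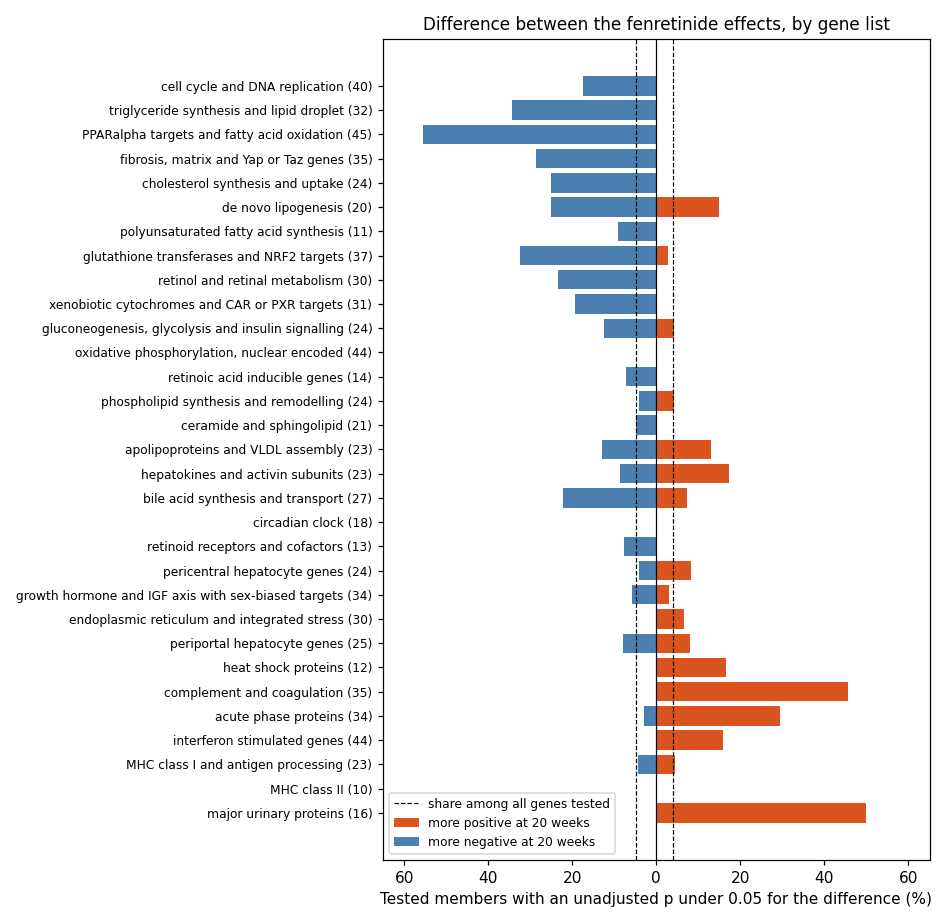
Share of tested members of each list (number in brackets) with an unadjusted p under 0.05 in edgeR for the difference, to the right where the fenretinide effect was more positive at 20 weeks and to the left where it was more negative, in order of the median difference. Dashed lines mark the shares among all 13387 genes, 3.95% and 4.73%. The longest bars are those of PPARα targets to the left and of major urinary proteins and complement genes to the right.

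Major urinary proteins are pheromone carriers made in male liver from near-identical genes, and their counts are uncertain one by one. Of 16 tested 8 were more positive at 20 weeks and 0 more negative, with a median of 1.69. Mup9 had 0.29 to 1.85 CPM on HFD and 3.37 to 5.98 CPM on FEN-HFD at 7 days, and 0.124 to 0.340 CPM on HFD and 25.1, 29.1, 31.0 and 4.99 CPM on FEN-HFD at 20 weeks (difference 4.35, SE 0.862, adjusted p = 0.0960, edgeR). It was called without mouse 29, the lowest of its group. The group means of Mup8 were 3.89 and 10.1 CPM at 7 days and 0.681 and 10.3 CPM at 20 weeks (2.58). Among 34 genes of the growth hormone axis 1 was more positive and 2 more negative, and the positive count was 3 without HFD mouse 45 at 20 weeks and 5 without the 3 libraries. Hao2 was one of the 2 more negative genes. It had at most 0.199 CPM at 7 days and 1.78 to 8.42 CPM on HFD against 0.0503 to 0.416 CPM on FEN-HFD at 20 weeks (-4.00, adjusted p = 0.205, edgeR).

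Matrix and proliferation genes were more negative, by counts that moved with single mice. The fibrosis list had 10 of 35 members more negative and 0 more positive, with a median of -0.50. Without mouse 29 it had 26 of 37, where 5.36% of all genes were more negative, and a median of -0.83. Over all fits without 1 mouse the count ran from 5 to 26. Lum (lumican) had 10.97 to 13.01 CPM on HFD and 9.14 to 11.6 CPM on FEN-HFD at 7 days, and 11.98 to 21.2 against 5.58 to 9.15 CPM at 20 weeks (-1.16, SE 0.255, adjusted p = 0.124, edgeR). Col1a1, a fibrillar collagen gene, had 3.33, 2.90, 4.37 and 17.0 CPM on FEN-HFD at 20 weeks, the highest in mouse 29, and 18.001, 22.2, 8.48 and 17.0 CPM on HFD (-1.44, SE 0.748). Stellate cell markers, the liver's main matrix producers, summed to 581 to 880 CPM on FEN-HFD and 634 to 985 CPM on HFD at 20 weeks, and 573 to 765 CPM at 7 days, with 0 of 12 at 0, and their part was not tested. Of 40 cell cycle genes 7 were more negative and 0 more positive, with a median of -0.72. The negative count was 3 to 19 over fits without 1 mouse. It was 30 without the 3 libraries, where 7.79% of all genes were more negative. They are low in liver. Ccnb2 (cyclin B2) had 0.502 to 0.597 CPM on HFD and 0.929 to 1.03 CPM on FEN-HFD at 7 days, and 0.728 to 3.29 CPM on HFD and 0.749 to 1.14 CPM on FEN-HFD at 20 weeks (-1.89, SE 0.481, adjusted p = 0.189, edgeR).

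Immune lists turned with the libraries left out. Of 44 interferon stimulated genes 7 were more positive at 20 weeks and 0 more negative, with a median of 0.51. With the 3 libraries left out 0 were more positive and 16 more negative, with a median of -0.35, where 7.79% of all genes were more negative. Tgtp1 differed by 6.73 in 16 libraries and by -1.08 without the 3. HFD mouse 143 at 7 days (709 CPM) and FEN-HFD mouse 29 at 20 weeks (89.6 CPM) were the only mice above 15.8 CPM. For 10 MHC class II genes the median went from 1.53 to -0.92, and the count more negative from 0 to 8. For 23 genes of MHC class I and antigen processing the median went from 0.52 to -0.20. Cd74, the invariant chain, had 344 CPM in mouse 143 and 409 CPM in mouse 29 against 58.0 to 128 CPM in the other 14 libraries. The 10 Kupffer cell markers summed to 1422 CPM in mouse 143 and 1489 CPM in mouse 29, and their median difference of 0.88 was 0.05 without the 3 libraries. No direction is given for these lists.

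Of 44 nuclear genes of oxidative phosphorylation 0 were more positive and 0 more negative at an unadjusted p under 0.05 in edgeR, and 0 were called by DESeq2 or limma-voom, with a median of -0.09. The same counts of 0 held for 18 circadian clock genes, with a median of 0.00. Of 30 genes of endoplasmic reticulum stress 2 were more positive, Sdf2l1 and Derl3, and 5 without mouse 29, where 3.92% of all genes were. Sdf2l1 was called without the 3 libraries, with a difference of 1.31 (adjusted p = 0.0499, edgeR), against 1.04 in 16. Pericentral and periportal hepatocyte genes gave 2 of 24 and 2 of 25 more positive and 1 and 2 more negative, with medians of 0.05 and 0.15. Of the periportal genes 6 were more positive without HFD mouse 143, where 3.94% of all genes were, and 7 without the 3 libraries, where 4.26% were. Of 21 ceramide genes 0 were more positive and 1 more negative, and of 24 phospholipid genes 1 went each way. Among all genes 3.95% were more positive and 4.73% more negative.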

How the data were processed

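Liver RNA of 16 mice was sequenced, and the authors deposited raw counts of reads per gene symbol, not normalized, in a single table. Per the labels the libraries were made with a stranded total RNA kit and ribosomal RNA depletion, whereas the paper's methods name a kit that does not mark strand, and this was not settled. The submitters' processing notes name STAR 2.0, DESeq2 1.6 and the build mm10. The program, annotation and strand setting of the counting are not given in the sources used here, so that reads of overlapping genes cannot be told apart.

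Counts were fitted in R 4.3.3 with edgeR 4.0.16 (filterByExpr, TMM, glmQLFit with robust=TRUE, glmQLFTest), with 1 term for each of 4 groups, and p-values were adjusted by Benjamini-Hochberg over the 13387 genes tested, with a threshold of 0.05. The contrast was (FEN-HFD minus HFD at 20 weeks) minus (FEN-HFD minus HFD at 7 days), and the effects at each duration came from the same fit. The standard error is the log2 value over the root of F. Pipelines were tested on simulated data. Alternatives were DESeq2 1.42.0, limma 3.58.1 (voom), other scalings and filters, glmTreat at 1.5-fold, each duration alone and each mouse left out. Named genes were all called genes, up to 4 called members of each list or else up to 2 with the smallest p, and genes the paper names. Others are marked in the text, and list members without an adjusted p were picked after their values were seen. The members and lists were chosen with earlier results of these data known. Promoters are from RefSeq (GRCm38.p6). The table held 5217 genes with 0 counts throughout and 2 repeated symbols.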

Additional observations from a re-analysis of the deposited data

Results flagged for a closer look

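The fenretinide effect differed between the durations by edgeR's quasi-likelihood test for Atp8b5 (log2 difference 3.13), Cyp46a1 (-2.24), Abcc3 (-1.32) and Nnt (-0.67), with adjusted p between 0.0119 and 0.0197. Among 208 sets of 4 mice checked for a part of the genes named above and for the share of Rn45s, 23 had 1 mouse far from the other 3 (by Dixon's 95% critical value). Some genes with group means above, such as Acot2, Cyp4a10, Srebf1 and Cyp2c70, were not checked. Chance flags about 1 in 20 groups, and genes that vary together in a mouse are not separate signs.

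Of these 23, 8 were FEN-HFD mouse 29 at 20 weeks. It was highest for Rn45s (53.1% of counts), Tgtp1 (89.6 CPM), Cd74 (409 CPM), Col1a1 (17.0 CPM), Lum (9.15 CPM), Cdc20 (1.46 CPM) and Atp6v1g1 (42.3 CPM), and lowest for Mogat1 (1.35 CPM). HFD mouse 143 at 7 days was highest for Tgtp1 (709 CPM), Cd74 (344 CPM) and Derl3 (4.14 CPM). HFD mouse 45 at 20 weeks was highest for Ttn (2617 CPM), Mylpf (62.8 CPM) and Rian (2.02 CPM).

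The rest fell on other mice. In the FEN-HFD group at 7 days, mouse 65 was highest for Cyp26a1 (272 CPM), Mup9 (5.98 CPM) and Sdf2l1 (26.9 CPM), mouse 61 for Me1 (60.8 CPM) and mouse 66 for Tgtp1 (15.8 CPM). In the HFD group at 20 weeks, mouse 25 was highest for Cyp26a1 (5.02 CPM) and mouse 28 for Fads1 (549 CPM) and Ugt1a9 (81.4 CPM). FEN-HFD mouse 24 at 20 weeks was highest for Meg3 (7.19 CPM).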

How the results depend on the processing

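Counts of calls for the difference, more positive then more negative at 20 weeks, were 1 and 3, against 50 and 67 by DESeq2, 38 and 52 by limma-voom, 3 and 8 with upper-quartile factors, and 0 and 0 by glmTreat at 1.5-fold. The positive count was 0 with genes of at least 1 CPM on average, where Atp8b5 was not tested, 2 without Rn45s and Lars2, and 3 without robust estimation. With 3 libraries left out, added after the data were seen, the counts were 16 and 25. With 1 mouse left out they ran from 0 to 5 and from 0 to 9. For fenretinide at 20 weeks, 254 genes rose and 407 fell, against 465 and 680 by DESeq2, 718 and 977 by limma-voom, 33 and 31 by glmTreat, 100 and 142 with that duration alone, and 614 falling without the 3 libraries, with 115 to 316 and 173 to 446 over fits without 1 mouse. For 7 days, 12 rose and 2 fell, against 43 and 20 by DESeq2, 28 and 14 by limma-voom, 3 and 0 by glmTreat and 0 falling with that duration alone, with 8 to 14 and 1 to 3 over fits without 1 mouse. The cause of these shifts was not tested.

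Of the named genes a few changed sign, none of them called. By limma-voom the difference was -0.22 for Tgtp1, -0.65 for Ciita, -0.32 for Cd74 and 0.20 for Inhbe, and without the 3 libraries it was -1.08, -0.85 and -0.67 for Tgtp1, Ciita and Cd74. Over fits without 1 mouse it ran from -0.12 to 0.15 for Rarb, -0.15 to 0.17 for Inhbe, -0.19 to 0.033 for Trim24, -4.45 to 0.10 for H19 and -0.085 to 1.20 for Rian. No paired analysis was possible because the groups share no mouse number. The median difference over all genes stayed between -0.01 and 0.03 in every setting. Low transcripts such as Atp8b5, at 3 to 64 counts per library, are limited by depth.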
